A study of Mus musculus with 9 samples.

Results

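The genes examined were the 9 that supply, use and compete for arginine around nitric oxide: Nos2, Arg1, Arg2, Ass1, Slc7a1, Slc7a2, Gch1, Odc1 and Sat1. They were taken by symbol from a table of 24061 gene symbols in 32850 rows, each row a RefSeq transcript, and the rows of a symbol were summed. RNA-seq libraries came from bone marrow-derived macrophages (BMDMs) of female C57BL/6J mice aged 8 to 10 weeks, differentiated for 7 days in L cell medium and deprived of serum for 1 day. There were 3 groups of 3 libraries: Veh, given DMSO; LPS, given DMSO and then 10 ng/mL lipopolysaccharide for 2 hr; and T0+LPS, given 500 nM T0901317, a synthetic agonist of the liver X receptors (LXRs), for 3 hr before the same LPS and kept on it. No group had T0901317 without LPS, the time at which Veh cells were harvested is not given in the sources used here, and the libraries are described as separate cultures rather than separate mice, so the p-values measure the spread between cultures.

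Macrophages take up arginine through the cationic amino acid transporters encoded by Slc7a1 and Slc7a2. Inducible nitric oxide synthase, the product of Nos2, turns it into nitric oxide and citrulline with tetrahydrobiopterin as cofactor, whose first and rate-limiting step is catalysed by GTP cyclohydrolase 1 (Gch1), and argininosuccinate synthase (Ass1) starts the return of citrulline to arginine. Arginases (Arg1 in the cytosol, Arg2 in mitochondria) split arginine into urea and ornithine instead, ornithine decarboxylase (Odc1) commits ornithine to polyamines, and spermidine/spermine acetyltransferase (Sat1) marks polyamines for export or breakdown. Nos2 is a textbook marker of macrophages activated by bacterial products, and Arg1 of those given interleukin 4.

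LPS raised the counts of every one of these genes that could be tested. Nos2 rose 193-fold, Slc7a2 34.4-fold and Arg2 16.7-fold, from near the detection floor, while Gch1, Odc1 and Slc7a1 rose 4.83-fold, 3.92-fold and 2.44-fold from levels that were already well counted, and reads on the 1 countable exon of Sat1, which does not measure its main mRNA, rose 1.54-fold. Pretreatment with T0901317 left all 7 above Veh, the Sat1 exon by only 1.45-fold, and none of the 7 passed the test against LPS alone. Mean levels of Nos2, Slc7a2 and Odc1 were lower with the agonist and that of Arg2 was higher. These 4 differences had an edgeR p under 0.05 before adjustment over all genes tested, and none passed after it.

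How much of each gene the table could count differed, because bases shared by more than 1 row carried no reads: the 6696 rows whose every base lay in another row held 0 reads. Nos2 (chr11:78920859-78960124, plus strand, mm10, 27 exons), Arg1 (chr10:24915207-24927470, minus, 8 exons), Slc7a1 (chr5:148327410-148399904, minus, 13 exons), Gch1 (chr14:47153895-47189402, minus, 6 exons) and Odc1 (chr12:17544873-17551502, plus, 12 exons) were countable over their whole transcript. Arg2 (chr12:79130788-79156301, plus, 8 exons) was countable over 1132 of 1417 bases, the other 285 being shared with Vti1b on the opposite strand. Ass1 (chr2:31470270-31520670, plus, 16 exons) shared 1552 of its 1631 bases with the row of Gm5424. Both were listed at 0 in all 9 libraries, so Ass1 was not measured here and its 0 is not evidence of absence.

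Slc7a2 (chr8:40862367-40922070, plus, 12 exons) was counted only on a pair of alternative exons, 140 bases in the first row and 137 in the second, each fully coding in the GENCODE annotation. The gene is known for making a high-affinity and a low-affinity transporter by using one or the other of such exons, and the table does not say which row is which form. The exon sequences are shown because every Slc7a2 read in the data falls on them. Capitals mark the bases that differ between them in an alignment of 140 columns, 84 of which were identical, 53 differed and 3 were gaps.
Slc7a2 exon of the first row, chr8:40908056-40908195, plus strand, mm10: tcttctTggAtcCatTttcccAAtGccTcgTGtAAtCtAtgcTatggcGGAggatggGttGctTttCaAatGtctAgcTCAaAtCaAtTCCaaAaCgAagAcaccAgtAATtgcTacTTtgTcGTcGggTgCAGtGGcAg
Slc7a2 exon of the second row, chr8:40908398-40908534, plus strand, mm10: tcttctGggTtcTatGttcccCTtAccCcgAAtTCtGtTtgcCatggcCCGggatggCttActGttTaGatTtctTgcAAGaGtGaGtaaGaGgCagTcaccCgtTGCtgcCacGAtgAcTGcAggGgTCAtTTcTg

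Sat1 (chrX:155213126-155216449, minus) had a similar limit. Its counts came from 1 exon of 110 bases (chrX:155215121-155215230), which only the longer of its 2 rows contains and which GENCODE places in a transcript marked for nonsense-mediated decay. Inclusion of an exon with an early stop is a known feature of Sat1. Its values below are therefore reads on that exon, and the main mRNA of the gene was not measured. Reads that join these short exons to shared ones may be missing too, so Slc7a2 and Sat1 were left out of comparisons of level between genes.

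Libraries held 13299044 to 16467983 counted reads, and the groups' ranges overlapped. The marks of each treatment were present: Il1b, the interleukin 1 beta gene, rose by 9.34 on the log2 scale with LPS (adjusted p = 5.8e-17, edgeR), and the LXR targets Abca1, Abcg1 and Srebf1 rose by 1.47, 2.09 and 1.30 on that scale from LPS to T0+LPS. LPS alone had moved these targets by 1.34, -1.25 and 0.36 from Veh. From LPS to T0+LPS, Il1b was called lower (-0.48, edgeR adjusted p = 0.0022). Tnf, the tumour necrosis factor gene, was not called (-0.25, edgeR adjusted p = 0.54). Summed macrophage markers (6 genes, with Itgam listed at 0) are given as CPM, counts scaled to a library of 1000000 reads. They ran from 25800 to 28060 in Veh, 29240 to 30300 in LPS and 31580 to 33170 in T0+LPS. Most of each sum was Lyz2 (means 19747, 21427 and 23738). Of the 5 tested, 3 were called higher and 1, Mertk, lower with LPS (-0.81 on the log2 scale). From LPS to T0+LPS only Mertk, which the authors list among LXR targets, was called, higher by 1.06. Cd68 was called in neither comparison. Markers of neutrophils, dendritic cells, T and NK cells, B cells, stroma, mast cells and erythroid cells stayed at or below 2.99 CPM in sum in every library, although the sums for neutrophils (0.695 to 1.33 in Veh, 2.06 to 2.91 in LPS; S100a9 at 0) and dendritic cells (0.232 to 0.529 and 2.24 to 2.91) were higher with LPS. The part of these markers in the results below was not tested. In these bulk samples, fewer cells of a type and less RNA per cell cannot be told apart.

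The first comparison, LPS against Veh, asks how the pathway responded to 2 hr of LPS. Of the 9 genes, 7 had enough reads to be tested and all 7 were called higher by edgeR's quasi-likelihood test at an adjusted p under 0.05, against 32.9% of the 9559 genes tested (31.2% were called lower). For all 7, every LPS library lay above every Veh library, which held for 33.7% of genes tested. The median of the 7 log2 fold changes was 2.27, beside -0.0019 over all genes tested. All 7 calls held when any 1 of the 6 libraries was left out.

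Nos2 was nearly silent in Veh, with 3, 1 and 4 reads. The LPS libraries held 409, 386 and 452 reads, and the T0+LPS libraries 226, 405 and 380. As CPM scaled by TMM, which corrects library size for composition, the means were 0.153 ± 0.083 in Veh, 31.8 ± 3.4 in LPS and 23.9 ± 5.9 in T0+LPS (SD, n = 3). The rise with LPS was 7.59 on the log2 scale (SE 0.21, edgeR adjusted p = 9.1e-15). The lowest treated library, T0+LPS 1, stood apart from the other two of its group and was still far above every Veh library.

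Gch1, the gene of the cofactor's first enzyme, had the highest level per length of the 6 genes that could be compared. Its Veh libraries gave 44.5, 44.8 and 44.4 CPM, its LPS libraries 217.7, 219.2 and 207.7, and its T0+LPS libraries 222.7, 208.4 and 219.5. The spread within each group was small beside the gap from Veh, and the LPS and T0+LPS libraries were interleaved. The rise with LPS was 2.27 on the log2 scale (SE 0.05, edgeR adjusted p = 3.0e-16).

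Both transporters rose with LPS, and their levels are not compared because Slc7a2 was counted on short exons only. Slc7a1, the widely expressed one, stood at 25.6, 27.5 and 28.1 CPM in Veh and at 58.3, 55.0 and 83.9 in LPS, a rise of 1.29 on the log2 scale (SE 0.12, edgeR adjusted p = 1.1e-07). LPS 3 was the high library of its group, and the other two were close to each other. Slc7a2, the inducible one, had 2, 2 and 5 reads in Veh over both exons and 100, 67 and 81 in LPS, a rise of 5.10 (SE 0.34, edgeR adjusted p = 1.2e-09).

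The 2 exons of Slc7a2 both gained reads. The 140-base exon had 2, 2 and 5 reads in Veh and 62, 40 and 62 in LPS. The 137-base exon had 0 reads in every Veh library and 38, 27 and 19 in LPS. Taking 3 reads over the Veh group as the floor, its level was at least 36.6-fold higher in LPS and at least 24.2-fold higher in T0+LPS. All 9 Veh reads fell on the 140-base exon, a share of 100% whose exact 95% binomial interval reaches down to 66.4%, while 164 of 248 LPS reads did, 66.1% (59.9 to 72.0%). By library the LPS shares were 62.0, 59.7 and 76.5%. The difference between LPS and Veh had an exact two-sided permutation p of 0.1, the smallest that 3 libraries against 3 can give, and at 9 reads the Veh share is too thinly counted to place below or above that of LPS. These intervals cover counting error only.

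**Figure D1:**
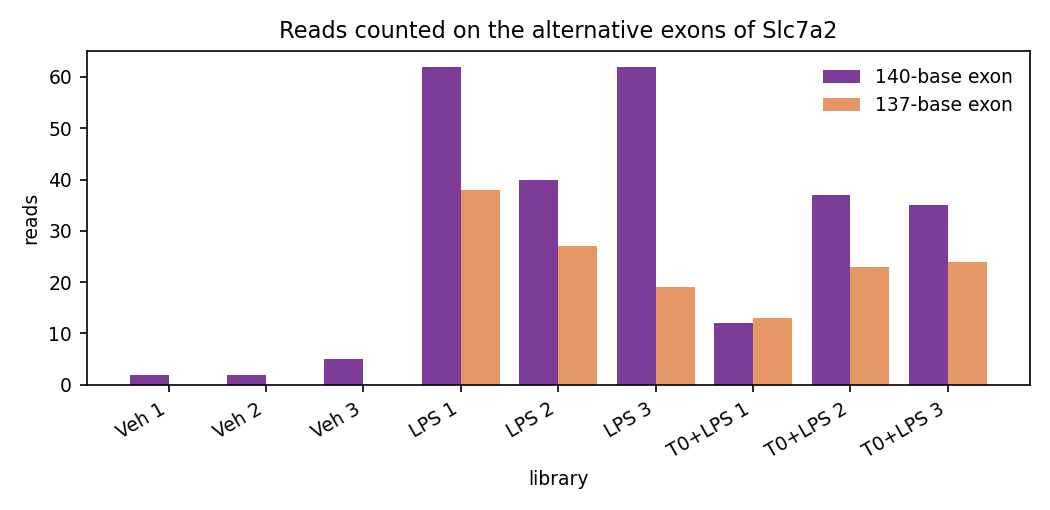
Reads on the alternative exons of Slc7a2, by library; the vertical axis is reads, purple bars the 140-base exon and orange bars the 137-base exon. Veh libraries hold 2 to 5 reads on the first exon and none on the second, and T0+LPS 1 is the 1 library with more reads on the second (13 against 12).

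On the arginase side, Arg2 rose and Arg1 did not register. Arg2 had 13, 6 and 7 reads in Veh, 105, 110 and 123 in LPS and 162, 172 and 152 in T0+LPS. The rise with LPS was 4.06 on the log2 scale (SE 0.22, edgeR adjusted p = 8.7e-11), and the groups lay far apart. Arg1, countable over all 1477 of its bases, had 0 to 4 reads in any library. Its reads came to 7 in Veh, 5 in LPS and 4 in T0+LPS, or 0.156, 0.119 and 0.0892 CPM of the groups' unscaled totals, with exact Poisson intervals of 0.0628 to 0.322, 0.0388 to 0.279 and 0.0243 to 0.229. It was too low to test, and no difference was detectable at this depth.

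Of the polyamine genes, Odc1 stood at 21.1, 21.2 and 21.4 CPM in Veh and at 79.0, 84.0 and 86.0 in LPS, with 1.97 on the log2 scale between them (SE 0.06, edgeR adjusted p = 2.3e-14). The countable exon of Sat1 gave 10.7, 12.2 and 14.6 CPM in Veh and 17.6, 18.3 and 21.9 in LPS, a rise of 0.63 (SE 0.11, edgeR adjusted p = 1.7e-04). Both sets of groups were clear of each other, with the smallest gap in Sat1.

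**Figure D2:**
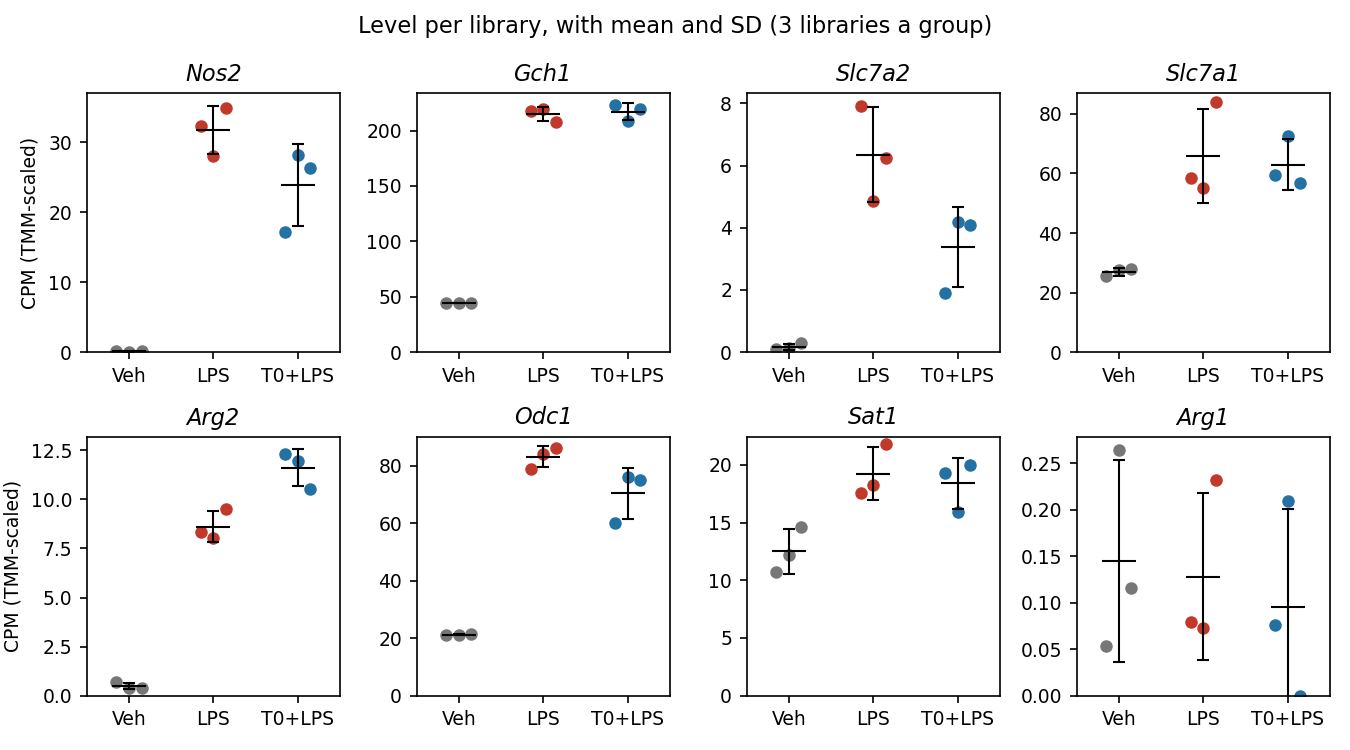
TMM-scaled CPM of 8 genes in each library, by group (grey, Veh; red, LPS; blue, T0+LPS); each panel has its own vertical axis from 0, the long dash is the mean and the bars the SD of 3 libraries. All LPS and T0+LPS libraries lie above Veh in every panel but Arg1, whose levels stay at or under 0.264 CPM and overlap, and T0+LPS 1 is the lowest treated library for Nos2, Slc7a2 and Odc1.

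The second comparison, T0+LPS against LPS, asks what LXR activation did to that response. Of the 7 genes tested, 0 were called higher and 0 lower by edgeR, where 1.35% of the 9348 genes tested were called higher and 1.83% lower. At an unadjusted p under 0.05 there were 4: Nos2, Slc7a2 and Odc1 with lower levels and Arg2 with higher ones, where 7.43% of the 9348 genes tested had a negative and 6.46% a positive difference at that level. DESeq2 called 1 of the 7, Slc7a2 (adjusted p = 0.043), and limma-voom called 0. The edgeR fit of all 9 libraries also called Slc7a2 (adjusted p = 0.045), and edgeR without the filter on low counts called 4, with Nos2, Slc7a2 and Odc1 lower (adjusted p = 2.4e-04, 5.7e-05 and 0.0087) and Arg2 higher (adjusted p = 0.018). The fit without the filter gave edgeR adjusted p-values far below the main fit's, as for Slc7a1 in LPS against Veh (5.0e-78 beside 1.1e-07). The reason was not tested, and its 4 calls are not taken as support. A fit with the replicate number as a block called Nos2, Slc7a2 and Odc1 lower. It is given at the end, since the numbers showed no sign of pairing the libraries. The median over the 7 was -0.07 on the log2 scale, beside 0.0028 over all genes tested.

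Nos2 gave 17.2, 28.2 and 26.3 CPM in T0+LPS and 32.4, 28.1 and 34.9 in LPS. The groups overlapped by a narrow margin, since T0+LPS 2 lay just above LPS 2. The fitted difference was -0.40 on the log2 scale (95% interval -0.69 to -0.12), with an edgeR adjusted p of 0.15. Without T0+LPS 1 it was -0.22 (adjusted p = 0.39, edgeR), and no fit with a library left out called it. The T0+LPS mean kept 75.1% of the rise that LPS gave over Veh.

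Slc7a2 had the largest difference of the 7 in size. Its T0+LPS libraries held 25, 60 and 59 reads over both exons against 100, 67 and 81 in LPS, and in CPM every T0+LPS library was below every LPS library, as for 9.62% of genes tested. The difference was -0.88 on the log2 scale (95% interval -1.41 to -0.36), edgeR adjusted p = 0.067. It was -0.61 (adjusted p = 0.19, edgeR) without T0+LPS 1, and the adjusted p ran from 0.032 without LPS 2 to 0.34 without LPS 1. The T0+LPS mean kept 52.0% of the LPS rise. By exon, the difference was -1.06 for the 140-base exon (edgeR adjusted p = 0.073) and -0.58 for the 137-base exon (adjusted p = 0.43), and the share on the first was 48.0, 61.7 and 59.3% in the T0+LPS libraries, overlapping the LPS shares (exact permutation p = 0.2, two-sided).

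Arg2 went the other way. T0+LPS libraries stood between 10.5 and 12.3 CPM and LPS libraries at 8.32, 8.01 and 9.50, every one below, a separation seen for 9.51% of genes tested. The difference was 0.43 on the log2 scale (95% interval 0.18 to 0.69), edgeR adjusted p = 0.068. The adjusted p was 0.041 without LPS 3 and 0.26 without LPS 1. Its rise over Veh in T0+LPS was 137% of that in LPS.

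Odc1 stood at 59.9, 76.0 and 75.0 CPM in T0+LPS, all under the 79.0 to 86.0 of LPS. The difference was -0.24 on the log2 scale (95% interval -0.40 to -0.07), edgeR adjusted p = 0.13, and -0.14 (adjusted p = 0.44, edgeR) without T0+LPS 1. For Arg2, Slc7a2 and Odc1, the exact two-sided permutation test gave p = 0.1, the lowest possible at this size, and for Nos2 it gave 0.2. T0+LPS 1 was thus the lowest treated library for 3 of these genes and the highest for Arg2.

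Gch1, Slc7a1 and the Sat1 exon showed small differences. For Gch1 the interval of the log2 difference was -0.09 to 0.11 (edgeR adjusted p = 0.95), and the groups overlapped. For Slc7a1, at 59.4, 72.7 and 56.7 CPM in T0+LPS, it was -0.33 to 0.21 (adjusted p = 0.90, edgeR), and for Sat1, at 19.3, 15.9 and 20.0 CPM, it was -0.30 to 0.16 (adjusted p = 0.86, edgeR). Their groups overlapped too, and the wider intervals leave room for larger differences than for Gch1.

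**Figure D3:**
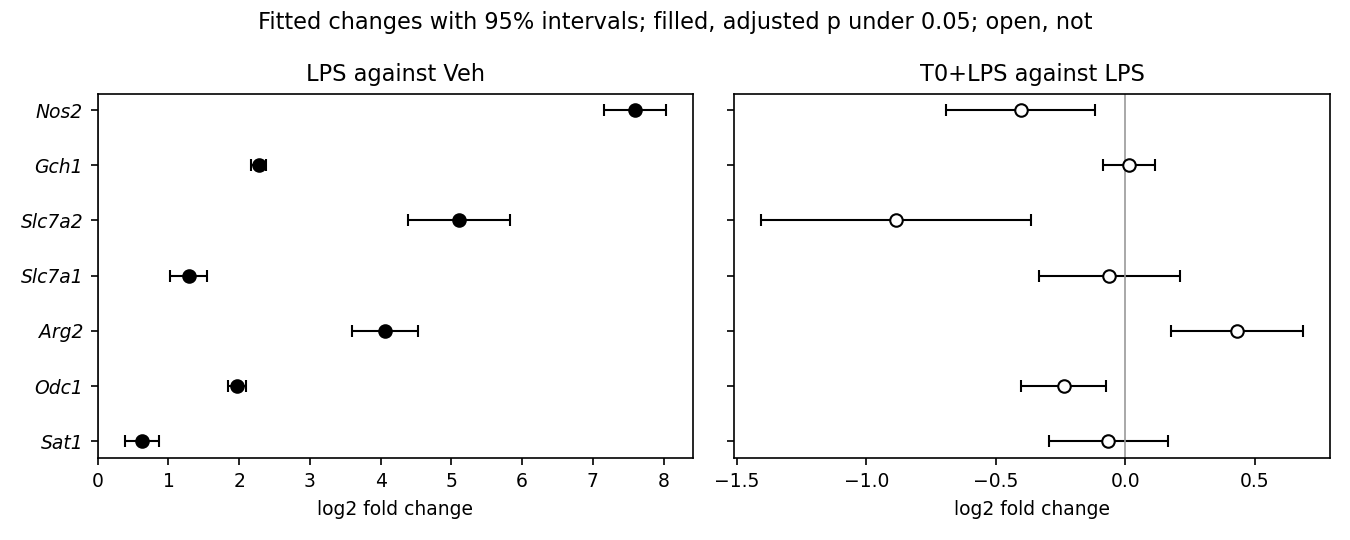
Fitted log2 fold changes of the 7 tested genes with 95% intervals, LPS against Veh at left and T0+LPS against LPS at right, on separate horizontal scales; filled points passed the edgeR test at an adjusted p under 0.05 and open points did not. The left panel runs from 0.63 for Sat1 to 7.59 for Nos2, and in the right panel the intervals of Nos2, Slc7a2, Arg2 and Odc1 lie clear of 0 before adjustment over 9348 genes.

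In the third comparison, T0+LPS against Veh, all 7 were called higher (32.4% of 9636 genes tested were), with the same Veh libraries as the first. The log2 fold changes were 7.17 for Nos2, 4.47 for Arg2, 4.20 for Slc7a2, 2.26 for Gch1, 1.71 for Odc1, 1.20 for Slc7a1 and 0.54 for Sat1. The largest edgeR adjusted p was 7.7e-04, for Sat1. Each tested gene thus stood above Veh when LPS was given with the agonist. Any effect of the agonist alone is part of these changes and was not measured.

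Per length, as CPM divided by the kilobases of countable sequence (RPKM), 6 genes could be ordered. In Veh the order was Gch1 at 16.1 ± 0.07, Odc1 at 8.34 ± 0.07, Slc7a1 at 3.77 ± 0.19, Arg2 at 0.441 ± 0.150, Arg1 at 0.0979 ± 0.0734 and Nos2 at 0.0383 ± 0.0208 (SD, n = 3), and only Arg1 and Nos2 overlapped. In LPS, Gch1 at 77.7 ± 2.3 and Odc1 at 32.6 ± 1.4 led. Slc7a1 at 9.16 ± 2.20, Nos2 at 7.97 ± 0.86 and Arg2 at 7.61 ± 0.69 followed and overlapped each with the next, far above Arg1 at 0.0866 ± 0.0609. In T0+LPS, Arg2 at 10.3 ± 0.8 overlapped Slc7a1 at 8.77 ± 1.19, and Nos2 at 5.99 ± 1.48 lay below both without overlap.

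The ratio of Nos2 to Arg2 per base sets the enzymes that compete for arginine side by side. It was chosen after their values were seen and is given with no test. It was 1.10, 0.996 and 1.04 in the LPS libraries and 0.396, 0.668 and 0.709 in the T0+LPS libraries, with means of 1.05 ± 0.05 and 0.591 ± 0.170, against 0.0916 ± 0.0617 in Veh. The LPS and T0+LPS ratios did not overlap, but dividing a gene seen to be lower by one seen to be higher favours that. Neither gene passed the test against LPS alone.

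**Figure D4:**
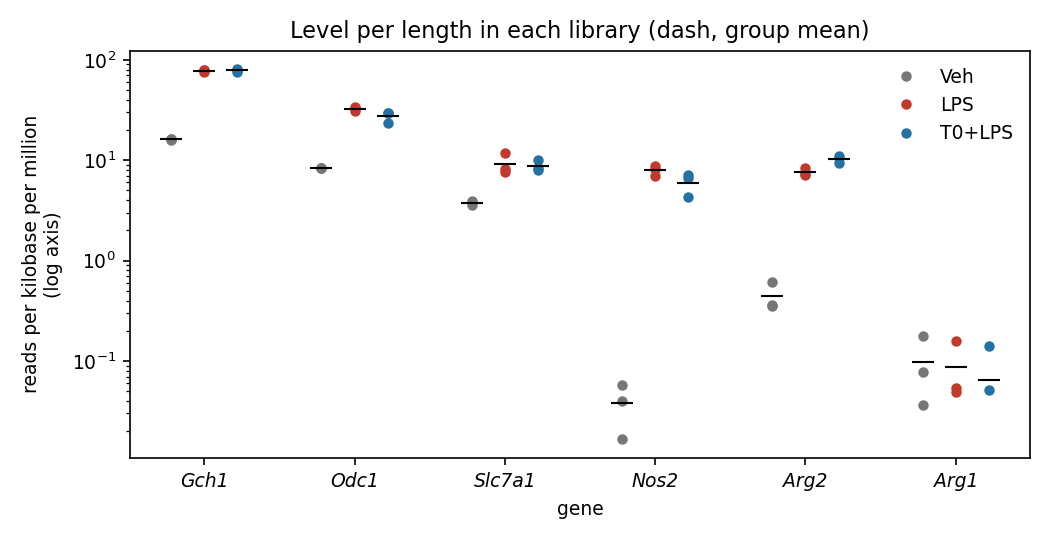
RPKM of 6 genes in each library on a log axis (grey, Veh; red, LPS; blue, T0+LPS), with a dash at each group's mean; the T0+LPS library with 0 reads of Arg1 cannot be drawn on this axis but counts in the mean. Gch1 leads in every group, and Nos2 moves from the lowest mean in Veh, 0.0383, to 7.97 in LPS.

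The genes whose pattern over the 9 libraries was nearest to that of Nos2, by the root mean square difference of centred log2 CPM among 7299 genes, were Icam1 at 0.246, Adora2a at 0.316 and Fscn1 at 0.329. Icam1, an adhesion molecule, went from 35.9 to 3731 and 2941 CPM in Veh, LPS and T0+LPS, and Adora2a, an adenosine receptor, from 0.633 to 90.9 and 68.1. Fscn1, an actin-bundling protein, went from 0.0178 in Veh to 9.57 in T0+LPS, below its LPS mean. Each had its lowest mean in Veh, its highest in LPS and one between them in T0+LPS, the pattern for which it was chosen. Those nearest to Arg1 (Irgm2 at 0.340, Phf11d at 0.355 and Ddx58 at 0.356) were flat, and Arg1 itself rests on 7, 5 and 4 reads a group.

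Promoter sequence, 250 bases before each start site to 50 after, was matched for 5 of the 9 genes in RefSeq (GRCm38.p6): Ass1, Slc7a1 (2 starts), Odc1, Gch1 and Sat1. Both strands were searched for AP-1 (TGACTCA), the interferon-stimulated response element core, C/EBP (TTGCNNAA), the NF-kB consensus, the E-box (CACGTG), the DR4 repeat bound by LXRs, the CCAAT box and the TATA box with the letters TATAAA. Gch1 and Slc7a1 are shown, up to the base before the start, because both genes rose with LPS and their windows hold a match for NF-kB or AP-1. Capitals mark the matches.
Gch1, chr14:47189414-47189663, minus strand, GRCm38.p6: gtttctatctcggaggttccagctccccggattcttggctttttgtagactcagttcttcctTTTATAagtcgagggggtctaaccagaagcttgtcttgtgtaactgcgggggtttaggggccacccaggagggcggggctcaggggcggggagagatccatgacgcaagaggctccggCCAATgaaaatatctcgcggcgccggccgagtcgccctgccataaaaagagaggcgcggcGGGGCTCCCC
Slc7a1, chr5:148399905-148400154, minus strand, GRCm38.p6: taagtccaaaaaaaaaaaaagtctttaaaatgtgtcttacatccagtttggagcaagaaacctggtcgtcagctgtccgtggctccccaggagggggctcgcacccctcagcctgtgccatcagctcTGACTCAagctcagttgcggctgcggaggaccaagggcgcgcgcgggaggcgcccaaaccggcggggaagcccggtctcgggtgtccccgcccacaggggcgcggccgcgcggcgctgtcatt

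In Gch1 the NF-kB consensus covered the last 10 bases before the start (-10 to -1), where its pattern matched on both strands. There was a CCAAT box at -70 to -66 and a TATA box match on the other strand at -188 to -183, none overlapping another. In Slc7a1, AP-1 lay at -123 to -117, and a CCAAT box on the other strand ran over the start, past the part shown. Of all 32851 promoters, 8.46% held the NF-kB consensus, 5.20% AP-1, 37.4% the CCAAT box and 13.6% the TATA box. The second start of Slc7a1 held a TATA box at -28 to -23 and Ass1 an E-box at -36 to -31. Odc1, which also rose with LPS, and Sat1 held no match, and the DR4 repeat was in none of the 6 windows and in 0.0152% of all promoters. These are matches of letters in a short window only.

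The other lists, with alternative activation among them, held 69 genes, of which 32 were not tested in LPS against Veh, 14 of those having bases shared with another row. Of the other nitric oxide synthases, cofactor enzymes and NO signalling genes, 6 of 16 were tested, 0 rose and 2 fell, with a median of -0.09; these and the counts of the lists that follow stand beside 32.9% of all genes tested called higher and 31.2% lower, and with so few genes a list is not set apart from that background. These were Nostrin, a trafficking protein of endothelial NO synthase, which fell by 0.51 on the log2 scale (edgeR adjusted p = 4.5e-05), and Pts, the step after Gch1, which fell by 0.46 (edgeR adjusted p = 5.4e-04).

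Of the other carriers of cationic amino acids, 4 of 8 were tested and 3 fell with LPS. The lysosomal exporter Pqlc2 fell by 0.62, the mitochondrial ornithine carrier Slc25a15 by 0.45 and the exchanger Slc7a6 by 0.21 on the log2 scale (edgeR adjusted p = 1.4e-06, 0.0013 and 0.033). The call of Slc7a6 was lost without LPS 1, LPS 2 or Veh 1 and with DESeq2. Pqlc2 was also the 1 gene of these lists called in T0+LPS against LPS, at 26.2, 24.4 and 24.5 CPM against 19.3, 20.8 and 20.8, a rise of 0.30 (edgeR adjusted p = 0.049) whose call was lost in all 6 fits with a library left out (adjusted p up to 0.25, without LPS 1) and with DESeq2, limma-voom or library totals. Of the urea cycle and other arginine enzymes, 4 of 8 were tested and 0 were called in either comparison. Among them Asl, the partner of Ass1 in remaking arginine, held 74.2 ± 1.5, 76.3 ± 1.9 and 79.4 ± 2.6 CPM in Veh, LPS and T0+LPS (SD, n = 3).

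Of the other polyamine genes, 11 of 18 were tested in LPS against Veh, with 4 higher, 3 lower and a median of 0.08. The higher ones were the spermine and spermidine synthases Sms (0.52) and Srm (0.36) and the hypusine enzymes Dohh (0.40) and Dhps (0.26), all on the log2 scale. With library totals in place of TMM, Srm and Dohh were no longer called and Dhps turned to -0.02. The lower ones, named here after their values were seen, included the largest changes of the list: reads of Atp13a2, a lysosomal polyamine exporter, fell by 3.16 (edgeR adjusted p = 1.4e-06), from 3.03 ± 0.91 CPM in Veh to 0.333 ± 0.123 in LPS (SD, n = 3). Only 74 of the 4327 bases of Atp13a2 could be counted, so its value is that of this stretch and not of the whole mRNA. Paox, which oxidises acetylated polyamines, fell by 1.18, from 5.28 ± 1.05 to 2.32 ± 0.33 CPM, and Eif5a2, a translation factor that carries hypusine, fell by 0.25, all on the log2 scale. None of the 10 tested passed in T0+LPS against LPS. Atp13a2 was not among these, with 13 reads in LPS and 38 in T0+LPS.

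Of the genes that link ornithine to proline and glutamate, 5 of 7 were tested and 2 fell with LPS, Aldh4a1 by 0.53 and Pycrl by 0.28 on the log2 scale, the second losing its call without LPS 3, Veh 1 or Veh 2 and with DESeq2. Of 12 genes of alternative activation, 7 were tested, 2 rose and 2 fell. The transglutaminase Tgm2 rose by 3.12 and the interleukin 4 receptor chain Il4ra by 1.13, while the transcription factors Klf4 and Pparg fell by 1.75 and 1.00 (log2). Mrc1, the mannose receptor, had 528 ± 19 CPM in Veh and 502 ± 36 in LPS and was not called, and Retnla was listed at 0 in every library. With T0901317, none of these 2 lists had a called gene.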

How the data were processed

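RNA-seq of 9 libraries was analysed. Per the methods, the authors trimmed adaptors with cutadapt, aligned reads of polyA RNA with HISAT2 (mm10 transcriptome) and used featureCounts to count them for RefSeq genes; in the deposited table a row is 1 RefSeq transcript, and some symbols have several. The deposited values are raw counts, not normalized, with totals of 13299044 to 16467983 per library. Reads on bases shared between rows carry no count, and whether counting used strand is not given in the sources used here. Further deposited tables hold the authors' own T0+LPS against LPS comparison (means, p-values, adjusted p-values and folds) and gene names for LPS against Veh, and were not used.

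Rows of a symbol were summed. Groups were compared in pairs of 3 libraries with the edgeR 4.0.16 quasi-likelihood test (R 4.3.3), TMM factors, filterByExpr and Benjamini-Hochberg adjustment at 0.05. Intervals are unadjusted t intervals of the fit. Tested on simulated data with 200 genes changed 1.5-fold, it recovered 79.0% in LPS against Veh and 74.5% in T0+LPS against LPS, with 9 and 8 false calls. The 200 were drawn at random from the genes tested, so the rates are not those of thinly counted genes. The real comparison of LPS against Veh called far more genes, 3148 higher and 2981 lower. Within a group, libraries differed from each other by more than sampling noise. Alternatives were DESeq2 1.42.0, limma-voom (limma 3.58.1), DESeq2's size factors or library totals for scaling, no filter, single rows, all 9 libraries, leaving out each library, and the replicate block. Genes outside the 9 were named if called in T0+LPS against LPS or, per list, among the 4 largest called changes with LPS at a mean of at least 5 CPM; exceptions are marked. The 9 genes and all lists were chosen with earlier results of these data known.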

Additional observations from a re-analysis of the deposited data

How the results depend on the processing

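Every tested gene of the 9 kept its direction and its call in both comparisons with Veh, in all 96 values recomputed for each. Library totals in place of TMM shifted the median of all genes by -0.28 on the log2 scale (LPS against Veh) and -0.26 (T0+LPS against Veh), changed the calls to 1694 higher and 5411 lower and to 1659 and 5523, moved the share of calls that were higher from 51.4% to 23.8% and from 49.6% to 23.1%, and turned Dhps to -0.0235. In T0+LPS against LPS, 11 of 96 values of the 9 passed the threshold and 6, none called, changed sign, all with a library left out (Slc7a1 -0.18 to 0.15, Gch1 -0.0084 to 0.0436, Sat1 -0.13 to 0.037). Without the filter, 225 genes were called higher and 285 lower, and of the 9 there was 1 higher (Arg2, adjusted p = 0.018) and 3 lower (Nos2, Slc7a2 and Odc1, 2.4e-04, 5.7e-05 and 0.0087). As the adjusted p-values without the filter were far below the main fit's in LPS against Veh too, those calls are not taken as support. DESeq2 and the fit of all 9 libraries each called 1 lower, Slc7a2. Leaving out a library gave 59 to 167 genes higher and 82 to 191 lower, and 0 to 1 of the 9 in each direction; fewest were called without LPS 1, and fewer also without T0+LPS 1 or 2 (78 higher without T0+LPS 2; 103 and 94 lower). The cause of these moves was not tested. For RPKM, the full length put Arg2 at 6.08 in LPS and 8.20 in T0+LPS. Library totals put Slc7a1 at 4.29, Gch1 at 18.4 and Odc1 at 9.50 in Veh, Gch1 at 72.9 and Odc1 at 30.6 in LPS and Gch1 at 73.4 in T0+LPS.

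Replicate numbers showed no sign of pairing the libraries, though 3 libraries a group cannot exclude it. Deviations of same-numbered libraries correlated between -0.11 and 0.12, and in T0+LPS against LPS 0 of 3 correlated best with their own number. With the replicate block that comparison gave 155 genes higher and 230 lower, with 3 of the 9 lower (Nos2 -0.42, Slc7a2 -0.89 and Odc1 -0.24, adjusted p = 0.023, 0.017 and 0.024, edgeR).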
